A study of Mus musculus with 20 samples.

Results

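The oxytocin and vasopressin system of the mouse hypothalamus was followed through 5 genes, Oxt, Avp, Oxtr, Avpr1a and Sim1, chosen by name out of the 54532 genes of the deposited count table. Bulk RNA sequencing was done on flash-frozen hypothalamus of male C57BL/6J mice in 20 libraries of 5 groups. Acute Gly-Low (4 libraries) held mice of 4 months that ate the glycation-lowering diet called Gly-Low for 1 week, and acute control (5 libraries) held mice of 4 months on the control diet for 1 week. Old Gly-Low (3 libraries) held mice of 25 months after 5 months of Gly-Low, and old control (4 libraries) mice of 25 months after 5 months of control diet. Young control (4 libraries) held mice of 3 months after 1 week of control diet. All groups share sex, strain and tissue, and the labels neither list the compounds in the diet nor say whether each library is a separate mouse, so a p-value here reflects only how far libraries scatter, which may be technical. The 3 contrasts that the design names ask what Gly-Low does within 1 week in young mice, what differs with age, and what prolonged Gly-Low does in old mice.

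Oxytocin and vasopressin are closely related short peptides, made mainly by large neurons of the paraventricular and supraoptic nuclei that release them from the posterior pituitary into the blood and also signal within the brain. Each is cut from a precursor that also holds its carrier protein, neurophysin. Oxytocin acts on uterine and mammary muscle, social behaviour and feeding, and vasopressin on water balance, blood pressure and, from neurons of the suprachiasmatic nucleus, circadian output. Oxtr and Avpr1a encode receptors that couple to Gq proteins and phospholipase C, and Sim1 encodes a transcription factor required for the formation of these neurons, whose reduced dose causes overeating and obesity in mice.

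Total counts ran from 15848372 to 27399753 per library. In acute Gly-Low libraries, log2 levels fell with transcript length, with slopes of -0.43 to -0.23 per doubling of length against the mean of all libraries, while in acute control libraries the slopes were 0.14 to 0.23. Mitochondrial genes took 17.0% to 23.3% of the counts in acute Gly-Low libraries and 5.35% to 9.11% in acute control libraries. Young control slopes ran from -0.27 to 0.22, old control slopes from -0.20 to 0.16 and old Gly-Low slopes from 0.08 to 0.29. The summed level of 11 markers of anterior and intermediate pituitary was 83.9 to 315 CPM (counts scaled to library size) in acute Gly-Low libraries, against 57.0 to 64657 CPM in acute control libraries, where replicates 2, 3 and 5 had the highest sums. Of the 10 markers tested, 9 were called lower in acute Gly-Low, as were 30.5% of all genes tested, and Pou1f1 was at 0 in all 4 of its libraries.

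The peptide genes lie side by side on chromosome 2 (build GRCm38). Oxt (ENSMUSG00000027301) spans 130576173 to 130577054 on the plus strand with 3 exons and a transcript of 537 bases. Avp (ENSMUSG00000037727) spans 130580620 to 130582554 on the minus strand with 3 exons and a transcript of 577 bases, so the 2 genes run towards each other with 3565 bases between them. The stretches that code for the hormones and for the amidation and cleavage signal behind them show how alike the genes are, and the capitals mark the bases that differ.
Oxt: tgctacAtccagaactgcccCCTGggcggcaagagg
Avp: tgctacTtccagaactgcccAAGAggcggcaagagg
Going from Oxt to Avp, the 36 bases differ by A7T, C21A, C22A, T23G and G24A, counted from 1 at the first base of the hormone, and these 5 changes fall in 3 codons. The hormone occupies residues 20 to 28 of the 125 residues of the oxytocin precursor and 24 to 32 of the 168 residues of the vasopressin precursor.

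Behind the hormone, in the part that codes for neurophysin, the transcripts share 1 run of 127 bases without a difference, at bases 156 to 282 of Oxt and 144 to 270 of Avp. It is shown because a read that lies wholly inside it belongs equally to both genes.
Shared run: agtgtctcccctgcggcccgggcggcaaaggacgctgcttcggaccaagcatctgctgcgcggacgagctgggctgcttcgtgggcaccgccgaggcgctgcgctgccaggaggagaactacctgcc
Of all windows of 50 bases in the Avp transcript, 14.8% also occur in Oxt, and of windows of 100 bases 5.86% do, so a small share of peptide reads may have been assigned to the other gene or left uncounted. The receptor transcripts share at most 23 bases in a row.

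The 300 bases around the starts of the peptide genes are shown because both genes were called in the same comparison below. They are RefSeq promoters of build GRCm38.p6, from 250 bases before to 50 bases after the start. Capitals in Oxt mark TGACC on either strand, the half-site of nuclear hormone receptors, and capitals in Avp mark CACGTG, the E-box of the circadian factors CLOCK and BMAL1.
Oxt, chr2:130575919-130576218, plus strand: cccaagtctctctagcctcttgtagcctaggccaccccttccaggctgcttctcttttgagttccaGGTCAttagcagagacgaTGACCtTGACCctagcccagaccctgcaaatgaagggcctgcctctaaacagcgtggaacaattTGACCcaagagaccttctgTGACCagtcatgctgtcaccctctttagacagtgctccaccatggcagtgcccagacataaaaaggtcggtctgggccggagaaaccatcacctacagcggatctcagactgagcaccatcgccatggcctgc
Avp, chr2:130582539-130582838, minus strand: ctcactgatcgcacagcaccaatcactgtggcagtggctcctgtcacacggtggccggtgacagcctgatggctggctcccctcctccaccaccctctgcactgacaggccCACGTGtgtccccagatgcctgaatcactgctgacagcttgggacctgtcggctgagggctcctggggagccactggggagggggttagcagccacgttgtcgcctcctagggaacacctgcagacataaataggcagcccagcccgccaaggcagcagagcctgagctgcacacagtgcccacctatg
The Oxt window holds 5 matches of TGACC, at 184, 166, 160, 102 and 83 bases before the start, the first on the opposite strand, and the Avp window holds none. The Avp window holds 1 CACGTG at 139 bases before the start and the Oxt window none. Both motifs also occur around the start of Oxtr, which was called in the opposite direction below. There TGACC lies on the opposite strand at 97 bases before and 24 bases after the start, and CACGTG at 43 bases before it. Among 32851 promoters of the same length, 40.5% hold at least 1 TGACC and 7.15% at least 1 CACGTG on either strand, and the motifs do not overlap each other in these windows.

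Receptor and transcription factor genes lie elsewhere. Oxtr (ENSMUSG00000049112) is on chromosome 6, 112473683 to 112489943, minus strand, with transcripts of 3721 and 4704 bases. Avpr1a (ENSMUSG00000020123) is on chromosome 10, 122448499 to 122453452, plus strand, with a transcript of 2670 bases. It lies in the span of Gm48877, a gene on the other strand whose exons share 0 bases with it and which had at most 8 counts, in 2 of 20 libraries. Sim1 (ENSMUSG00000019913) is on chromosome 10 as well, 50894754 to 50989152, plus strand, with transcripts of 1687 and 7355 bases. The libraries were not directional, so reads from the 2 strands of a locus cannot be told apart.

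The peptide genes were far more abundant than their receptors. Per kilobase of transcript, young control libraries averaged 750 ± 302 CPM of Oxt and 551 ± 143 CPM of Avp, against 5.51 ± 0.67 of Sim1, 3.12 ± 0.50 of Avpr1a and 1.80 ± 0.67 of Oxtr (SD, n = 4). The order of Oxt and Avp lies within their spread, and so does that of Sim1 and Avpr1a once Sim1 is taken over its merged exons, which gives 2.89 ± 0.35 CPM per kilobase. Together the peptide genes took 0.0103% to 0.103% of the counts of a library, the lowest in acute control 1 and the highest in acute Gly-Low 1.

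**Figure D1:**
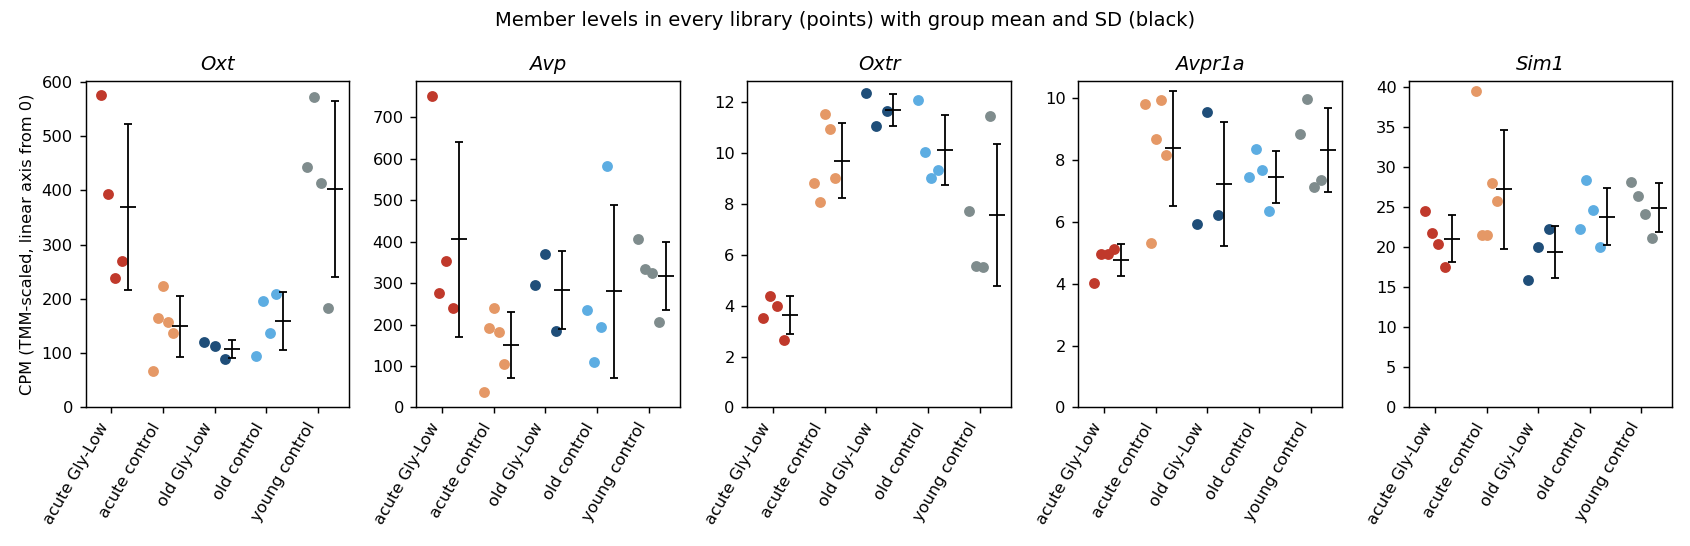
Level of each gene in every library, in CPM scaled by TMM on a linear axis from 0, in the order acute Gly-Low, acute control, old Gly-Low, old control and young control. Points are libraries, and the black marks are the group mean and SD. Acute Gly-Low libraries sit above acute control libraries for Oxt and Avp and below them for Oxtr and Avpr1a, with no overlap, while the groups overlap for Sim1.

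A week of Gly-Low in mice of 4 months went with higher peptide RNA and lower receptor RNA. Oxt was 2.51-fold and Avp 2.74-fold higher in acute Gly-Low than in acute control, Oxtr was at 0.381 times and Avpr1a at 0.575 times the control level, and Sim1 was not called. Those 4 of 5 genes passed the test in a comparison that called 58.3% of the 17161 genes tested, 27.8% higher and 30.5% lower. Of the 4 genes, Avpr1a was called under each of the 21 alternatives run, while Oxt, Avp and Oxtr each lost the call under at least 1 alternative that takes transcript length into account. In bulk tissue, fewer cells of a type and less RNA per cell cannot be told apart.

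Oxt was at 576, 393, 239 and 270 CPM in the 4 acute Gly-Low libraries, against 66.8, 164, 223, 157 and 138 CPM in the 5 acute control libraries. The lowest Gly-Low library lay above the highest control library, the gap being 239 against 223 CPM. The log2 fold change was 1.33 ± 0.30 (SE) with an edgeR adjusted p of 0.00141. Avp was at 752, 277, 354 and 241 CPM in acute Gly-Low libraries, against 37.1, 192, 240, 181 and 105 CPM in acute control libraries. Acute Gly-Low 1 was far above the rest of its group and acute control 1 far below the rest of its own, and the lowest Gly-Low library exceeded the highest control library by 241 against 240 CPM. The log2 fold change was 1.45 ± 0.42 (edgeR, adjusted p = 0.00836). Without acute Gly-Low 1 it was 0.96 with an adjusted p of 0.0568 in edgeR.

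Oxtr, the only oxytocin receptor gene, was at 3.53, 4.37, 4.00 and 2.65 CPM in acute Gly-Low libraries, from 43 to 88 counts each. Acute control libraries had 8.85, 8.10, 11.5, 11.0 and 9.05 CPM, from 186 to 309 counts. The groups were well apart, with the highest Gly-Low library at 4.37 CPM and the lowest control library at 8.10 CPM. The log2 fold change was -1.39 ± 0.22 (edgeR, adjusted p = 6.87e-05). Avpr1a, the main vasopressin receptor of the brain, was at 4.02, 4.97, 4.96 and 5.12 CPM in acute Gly-Low libraries, against 9.80, 5.31, 8.67, 9.93 and 8.18 CPM in acute control libraries. Acute Gly-Low 1 was the lowest and the other Gly-Low libraries were close together, and the only control library near them was acute control 2, which also had the largest pituitary marker sum. The log2 fold change was -0.80 ± 0.22 (edgeR, adjusted p = 0.00695). The groups did not overlap for 4 of the 5 genes, while 46.9% of all genes tested showed no overlap in this comparison.

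Sim1 was at 24.5, 21.7, 20.4 and 17.5 CPM in acute Gly-Low libraries, against 39.5, 21.5, 21.5, 27.97 and 25.7 CPM in acute control libraries. The groups overlapped, with acute control 1 above all other libraries. The log2 difference was -0.36 ± 0.19 and was not called (edgeR, adjusted p = 0.125), and without acute control 1 it was -0.18 (edgeR, adjusted p = 0.301). Without acute controls 2, 3 and 5 it was -0.71 with an edgeR adjusted p of 0.0146, on 2 control libraries. In that same fit Oxt was at 1.69, Avp at 1.87, Oxtr at -1.46 and Avpr1a at -1.07, each with an adjusted p of at most 0.0145 in edgeR. Of the 2 control libraries in that fit, acute control 1 was the lowest of its group for Oxt and Avp and the highest for Sim1.

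**Figure D2:**
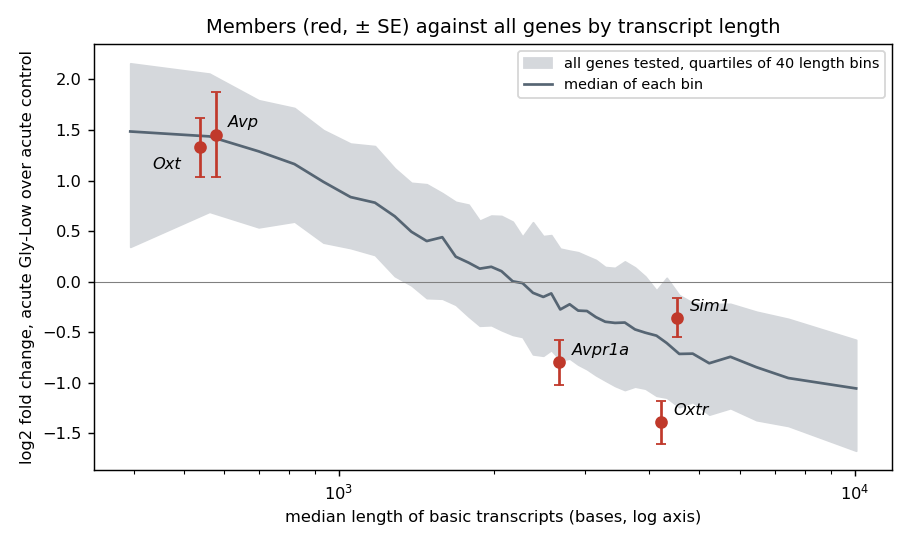
Log2 fold change of acute Gly-Low over acute control against the median length of a gene's basic transcripts, on a log axis in bases. The line is the median and the band the quartiles of all genes tested in 40 length bins, and the red points are the 5 genes with their SE. Oxt and Avp sit on the median of short genes, Oxtr lies below the band, Avpr1a at its lower edge, and Sim1 lies above the median.

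Short transcripts as a whole were higher and long ones lower in acute Gly-Low than in acute control, so each gene was set beside genes of its own length. The 429 genes of 486 to 638 bases, where both peptide genes fall, had a median log2 fold change of 1.44 with quartiles of 0.69 and 2.06, and 68.1% of them were called higher. Oxt at 1.33 and Avp at 1.45 lay at that median. The 428 genes of 4033 to 4220 bases, around the median length of the Oxtr transcripts, had a median of -0.54 and a lower quartile of -1.13. Oxtr at -1.39 was below that quartile. The 429 genes of 2634 to 2742 bases, the length of Avpr1a, had a median of -0.28 and a lower quartile of -0.78, just above the -0.80 of Avpr1a. Sim1 was placed at 4521 bases, the median of its transcripts of 1687 and 7355 bases, a length that neither has. Genes of 4434 to 4700 bases had a median of -0.72, and Sim1 at -0.36 was above it. The bin around 1684.5 bases had a median of 0.25 and a lower quartile of -0.23, above Sim1, and the bin around 7434 bases a median of -0.95. The place of Sim1 thus depends on the length used, and the offset below also uses 4521 bases.

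With an offset that removes each library's trend over length, Oxt was at -0.17 (edgeR, adjusted p = 0.592), against 1.33 without the offset. Avp was at -0.02 (adjusted p = 0.968 in edgeR) and Sim1 at 0.27 (adjusted p = 0.328 in edgeR), none of them called. Both receptor genes stayed lower in acute Gly-Low under the same offset, Oxtr at -0.87 (edgeR, adjusted p = 0.00296) and Avpr1a at -0.62 (edgeR, adjusted p = 0.0302). When the slope of each library entered a fit on all 20 libraries as a covariate, Avpr1a was at -1.12 (edgeR, adjusted p = 0.0237) and Oxtr at -0.72, not called (edgeR, adjusted p = 0.105). In the same fit Oxt was at 0.25 (adjusted p = 0.805 in edgeR), Avp at 1.09 (adjusted p = 0.408 in edgeR) and Sim1 at -0.80 (adjusted p = 0.0481 in edgeR). The slopes of the 2 acute groups do not overlap, and the SE of Oxt was 0.55 in that fit, against 0.34 in the fit on the same 20 libraries without the slope.

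**Figure D3:**
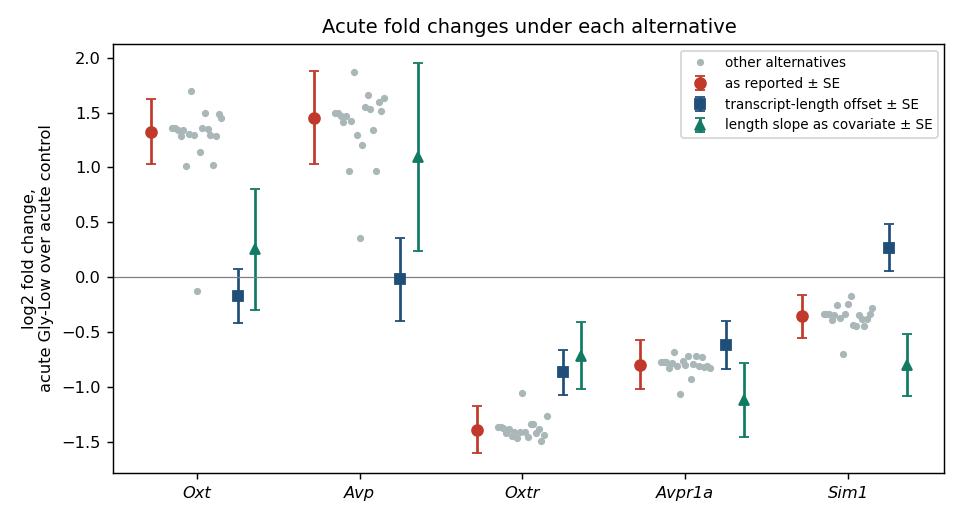
Log2 fold change of acute Gly-Low over acute control for each gene as reported (red, ± SE), with the transcript-length offset (blue squares, ± SE), with the length slope as covariate (green triangles, ± SE) and under the other alternatives (grey). Oxt and Avp fall to about 0 with the offset, the receptors stay below 0 in every case, and Avpr1a runs from -1.12 to -0.62.

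The other genes of the pathway were called lower more often than higher in acute Gly-Low. Of 45 genes listed, 42 were tested, 7 were called higher and 25 lower, in a comparison that called 27.8% of all genes higher and 30.5% lower, with a median log2 fold change of -0.79 against -0.07 for all genes. Their transcripts run from 721 to 12052 bases, and the part of length in these counts was not tested over the list. None of the other receptor genes could be tested. Avpr2, the kidney receptor, had 0 counts in every library. Avpr1b, the receptor of pituitary corticotrophs, was counted in 4 libraries only, at 10 and 9 counts in acute controls 2 and 5 and at 3 and 1 counts in old Gly-Low 1 and 2. Acute controls 2 and 5 were also the libraries with the highest pituitary sums, 64657 and 32944 CPM.

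Among factors that build the paraventricular nucleus, 1 of 4 tested was called higher and 2 lower in acute Gly-Low, against 27.8% and 30.5% of all genes, which is near the background for 4 genes. Arnt2, the partner protein of SIM1, fell by 1.48 on the log2 scale (edgeR, adjusted p = 4.90e-06) and Otp, a homeobox factor of the same neurons, fell by 0.92 (edgeR, adjusted p = 0.00241), while Pou3f2, which acts downstream of Sim1, rose by 0.53 (edgeR, adjusted p = 0.0164). Arnt2 was at 0.66 with the slope covariate and Otp at 1.40, both in the opposite direction, and without acute Gly-Low 1 Pou3f2 lost the call at 0.43 (edgeR, adjusted p = 0.0598). Of 5 genes of peptide expression and release, Trpm2, a cation channel tied to oxytocin release, was at -1.73 and Caprin2, which binds Avp RNA in the rat, at -0.59, both called lower, though the slope covariate put Trpm2 at 1.23 and Caprin2 lost the call without acute Gly-Low 2, at -0.48 (edgeR, adjusted p = 0.0584). Cd38, an enzyme needed for oxytocin release in mice, was at 0.35 and was not called (edgeR, adjusted p = 0.0910), but was at 0.48 without acute control 1 (edgeR, adjusted p = 0.00859).

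Genes that process the precursors and fill secretory granules were lower in 8 of 11 cases and higher in 1. Of all genes in this comparison 30.5% were called lower and 27.8% higher, shares that also apply to the aminopeptidase and Gq genes below. The convertase gene Pcsk2 fell by 1.37 and Pam, whose enzyme amidates both hormones, fell by 1.44, while Scg5, the chaperone of that convertase, rose by 0.90. Chgb at -2.84 and Chga at -2.41 lay lowest in this list, named here after their values were seen, and both are granule genes that pituitary cells also express. The part of the pituitary marker sums given above in these differences was not tested. All 4 aminopeptidase genes were tested and 3 were lower, Npepps at -0.74, Enpep at -1.25 and Lnpep, the oxytocinase, at -0.54, which the length offset turned to 0.49. The call of Lnpep was lost in 7 of the 9 fits that each left out 1 library, with adjusted p-values up to 0.137 in edgeR, and Enpep was at -1.89 without acute Gly-Low 4. Of 10 genes of Gq signalling, on which both receptors act, 8 were lower and 0 higher, with Prkca at -1.33 and Prkcb at -1.09, the second of which was at 0.18 with the slope covariate.

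Of 8 genes expressed beside the 2 hormones in the paraventricular and supraoptic nuclei, 7 encode peptides and Nos1 encodes an enzyme that makes nitric oxide. Of the 8, 5 were called higher in acute Gly-Low and 2 lower, against 27.8% and 30.5% of all genes. Cck rose by 1.04 and Vip by 1.04, Crh, the releasing hormone of the stress axis, by 0.65, Gal by 0.49 and Trh by 0.46, while Nos1 fell by 1.53 and Pdyn by 0.84. The 5 that rose have short transcripts of 730 to 1530 bases, and with the length offset Cck was at -0.14 and Trh at -0.05. The slope covariate put Nos1 at 1.26, and against young controls Crh was at -1.14 and Cck at -0.38, all in the opposite direction. Crh also lost the call without acute Gly-Low 2 or 3, with adjusted p-values of up to 0.0834 in edgeR. Vip is also a marker of the suprachiasmatic nucleus, another source of Avp, and of the 8 markers of that nucleus 2 were called higher and 4 lower. The summed level of the 8 was 63.4 to 86.3 CPM in acute Gly-Low libraries and 66.4 to 84.2 CPM in acute control libraries, with none of the 8 at 0. Of 7 neuron markers, 4 were lower and 0 higher, with sums of 2929 to 3361 CPM in acute Gly-Low libraries and 3988 to 5026 CPM in acute control libraries. The part of either in the results was not tested.

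The 2 young groups on control diet differed in Oxt. Acute control libraries had 66.8 to 223 CPM of Oxt with a mean of 150 ± 56.2 (SD, n = 5), and young control libraries had 443, 572, 413 and 182 CPM with a mean of 403 ± 162 (SD, n = 4). Only young control 4 fell within the range of the acute controls. Its length slope was 0.22 and its mitochondrial share 5.73%, against -0.27 to -0.11 and 12.9% to 17.2% in young controls 1, 2 and 3. The log2 difference was -1.43 ± 0.34 (edgeR, adjusted p = 0.0247), 1 of the 5 genes in a comparison that called 5.29% of 19061 genes. With the length slope as covariate it was -0.83 (edgeR, adjusted p = 0.317), and leaving out acute control 1 or 5 or young control 1, 2 or 3 in turn gave adjusted p-values from 0.0522 to 0.107 in edgeR.

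Avp averaged 151 ± 79.9 CPM in acute control libraries (SD, n = 5) and 318 ± 82.5 CPM in young control libraries (SD, n = 4), at 406, 335, 324 and 207 CPM, a log2 difference of -1.07 ± 0.48 that was not called (edgeR, adjusted p = 0.204). Oxtr was at 7.72, 5.55, 5.53 and 11.5 CPM in young control libraries, with young control 4 alone among the acute controls. Its log2 difference of 0.36 was not called (edgeR, adjusted p = 0.379), but was 0.63 without young control 4 (edgeR, adjusted p = 0.0365). Avpr1a at 0.01 and Sim1 at 0.13 were not called. Of the 8 genes expressed beside them, 4 were lower in acute control than in young control and 0 higher, against 4.37% lower and 0.923% higher of all genes, with Crh at -1.77 (edgeR, adjusted p = 0.0116) and Cck at -1.40 (edgeR, adjusted p = 0.0133). Without young control 2 or 3 neither was called, with adjusted p-values of up to 0.0607 for Crh and up to 0.0657 for Cck in edgeR. Crh averaged 3.64 ± 0.19 CPM in acute control libraries (SD, n = 5) and 12.4 ± 2.63 CPM in young control libraries (SD, n = 4). Of the 11 pituitary markers, 8 were higher in acute control and 0 lower, against the same shares of all genes.

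Since the 2 control groups differed, the acute Gly-Low libraries were also set against the young controls, in a fit on all libraries added after these values were seen. Oxt was then at -0.12 (edgeR, adjusted p = 0.819) and Avp at 0.35 (edgeR, adjusted p = 0.626), neither called. Oxtr at -1.06 (edgeR, adjusted p = 0.00186) and Avpr1a at -0.80 (edgeR, adjusted p = 0.00851) were again lower in acute Gly-Low. Lower receptor RNA was thus called against both young groups, and higher peptide RNA was called against the acute controls. Those groups differ in age by 1 month and in the arm they belong to. Length slopes were 0.14 to 0.23 in acute control and -0.27 to 0.22 in young control libraries. Mitochondrial shares were 5.35% to 9.11% in acute control and 5.73% to 17.2% in young control libraries. The comparison with young controls was not run with a length adjustment. Contrasts that share the acute controls or acute Gly-Low libraries are not independent.

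**Figure D4:**
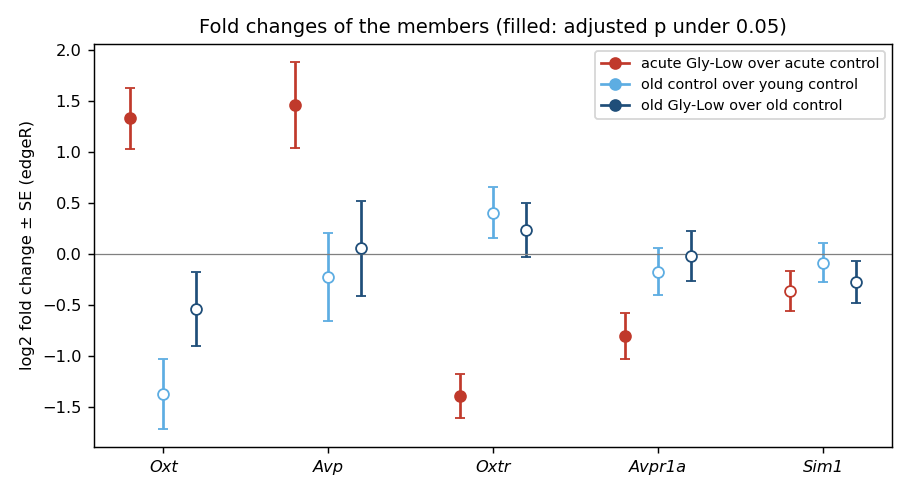
Log2 fold changes with SE from edgeR for the 5 genes, for acute Gly-Low over acute control, old control over young control and old Gly-Low over old control. Filled points have an adjusted p under 0.05. All filled points are of the acute diet, for Oxt, Avp, Oxtr and Avpr1a.

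Between 25 and 3 months of age, no gene of the system passed the edgeR test. Time on the control diet, 5 months against 1 week, differed along with age and cannot be told apart from it. Old control libraries had 94.3, 197, 136 and 208 CPM of Oxt, with a mean of 159 ± 53.3 (SD, n = 4), and young control libraries 403 ± 162 CPM (SD, n = 4). Young control 4, at 182 CPM, was the only young library in the range of the old ones. The log2 difference was -1.37 ± 0.34, with an unadjusted p of 0.00183 and an adjusted p of 0.191 in edgeR. DESeq2, which called 388 genes, gave -1.33 with an adjusted p of 0.0163. Limma-voom with quality weights, which called 3920 genes, gave -1.89 with an adjusted p of 0.00397. With the length offset Oxt was at -0.86 (edgeR, adjusted p = 0.288) and with the slope covariate at -0.99 (edgeR, adjusted p = 0.151), neither called. The 457 genes of 470 to 610 bases, the length of Oxt, had a median of -0.34 with age. None of the 5 genes was among the 6 that edgeR called, 0.0328% of 18281.

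The value depended on which young group was used. Against the acute controls of 4 months in place of the young controls of 3 months, a comparison added after the values were seen, Oxt of old controls was at 0.08 (edgeR, adjusted p = 0.957) and Avp at 0.89 (edgeR, adjusted p = 0.442). Avp was at 234, 109, 194 and 583 CPM in old control libraries, and all 4 young controls lay within that range. Its log2 difference from young control was -0.22 ± 0.43 (edgeR, adjusted p = 0.906).

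Neither receptor gene was called with age. Oxtr was at 12.1, 10.04, 9.04 and 9.33 CPM in old control libraries, against 5.53 to 11.5 CPM in young control libraries, a log2 difference of 0.41 ± 0.25 (edgeR, adjusted p = 0.688). Under limma-voom with quality weights, which called 3920 genes, it was 0.62 with an adjusted p of 0.0327. Avpr1a was at 7.46, 8.37, 7.67 and 6.35 CPM in old control libraries and at 8.85, 9.98, 7.12 and 7.35 CPM in young control libraries, a difference of -0.17 ± 0.23 on the log2 scale (edgeR, adjusted p = 0.853). Sim1 overlapped between the groups, at 22.3, 28.3, 24.6 and 19.97 CPM in old control libraries and 28.1, 26.4, 24.1 and 21.1 CPM in young control libraries, with -0.08 ± 0.19 on the log2 scale (edgeR, adjusted p = 0.921). Of the 45 other pathway genes, 43 were tested and none was called in either direction, 3 of them at an unadjusted p under 0.05, as were 1663 of the 18281 genes tested. Their median was 0.12, against 0.02 for all genes.

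After 5 months of Gly-Low, none of the 5 genes was called in old mice. Old Gly-Low libraries had 120, 114 and 88.8 CPM of Oxt, a mean of 108 ± 16.6 (SD, n = 3), against 159 ± 53.3 CPM in old control libraries (SD, n = 4). All 3 lay in the lower part of the old control range or just under it. The log2 difference was -0.54 ± 0.36 (edgeR, adjusted p = 0.953). Avp was at 296, 370 and 185 CPM in old Gly-Low libraries, inside the range of the old controls, with a log2 difference of 0.06 ± 0.47 (edgeR, adjusted p = 0.985).

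Oxtr was at 12.4, 11.1 and 11.7 CPM in old Gly-Low libraries, all above 3 of the 4 old control libraries, with a log2 difference of 0.23 ± 0.26 (edgeR, adjusted p = 0.953). Avpr1a was at 5.93, 9.55 and 6.23 CPM, on both sides of the old controls, with -0.02 ± 0.25 on the log2 scale (edgeR, adjusted p = 0.990). Sim1 was at 15.9, 20.02 and 22.3 CPM, with -0.27 ± 0.20 on the log2 scale (edgeR, adjusted p = 0.953). No gene of the 18281 tested was called by edgeR, where 433 had an unadjusted p under 0.05, and DESeq2 called 3. Of 43 other pathway genes tested none was called, with a median of 0.22 against 0.03 for all genes, and 1 had an unadjusted p under 0.05, Trh at -0.94. This contrast and the one of age share the 4 old controls, so their values are not independent.

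The diet effects in the 2 arms were compared by an interaction term over all 20 libraries, in which diet time and age both differ between arms. For Oxt the old diet effect minus the acute one was -1.86 ± 0.52 on the log2 scale (edgeR, adjusted p = 0.00944), from -0.56 in old mice and 1.30 in the acute arm in that fit. For Oxtr it was 1.62 ± 0.33 (edgeR, adjusted p = 9.34e-04), from 0.21 in old mice and -1.41 in the acute arm in the same fit. Avp at -1.41 ± 0.73 (edgeR, adjusted p = 0.139), Avpr1a at 0.77 ± 0.31 (edgeR, adjusted p = 0.0609) and Sim1 at 0.08 ± 0.28 (edgeR, adjusted p = 0.844) were not called. The term called 2 of the 5 genes, and 36% of all 19061 tested, 16.8% higher and 19.2% lower, with a median of 0.10. With the length slope as covariate it was -0.54 for Oxt (edgeR, adjusted p = 0.716) and 0.72 for Oxtr (edgeR, adjusted p = 0.306). Without old control 4 Avp was at -0.76, and without acute control 2 Avpr1a passed, at 0.89 (edgeR, adjusted p = 0.0214). Of 43 other pathway genes, 18 were higher and 3 lower on this term, the lower ones being Scg5 at -1.06, Trh at -1.40 and Cck at -1.36.

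**Figure D5:**
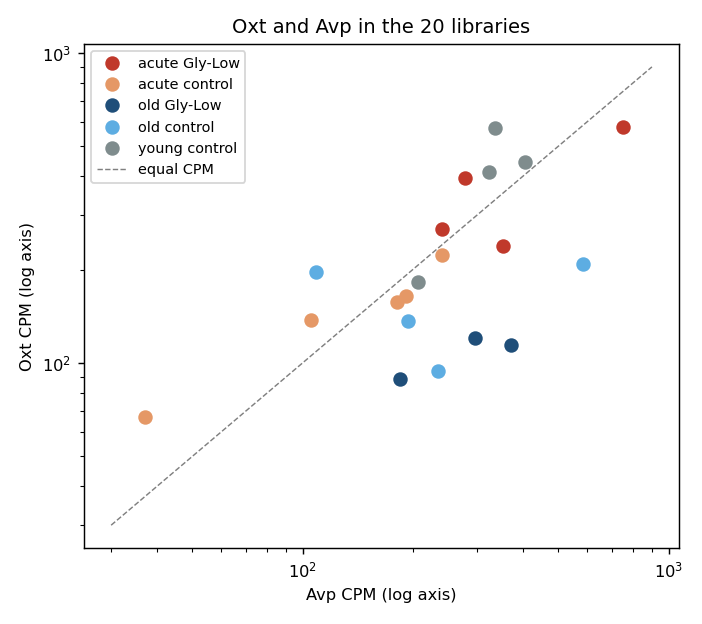
Oxt against Avp in the 20 libraries, in CPM on log axes, with a dashed line where both are equal. All 3 old Gly-Low libraries and 3 of the 4 old controls lie below the line, where Avp exceeds Oxt, and 3 of the 4 young controls lie above it.

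The peptide transcripts are of similar length, and the ratio of their levels was taken in each library. Avp exceeded Oxt in 12 of 20 libraries. The log2 ratio of Oxt to Avp averaged -1.35 ± 0.32 in old Gly-Low libraries (SD, n = 3) and -0.62 ± 1.07 in old control libraries (SD, n = 4), with Avp higher in 3 of 3 and in 3 of 4. It averaged -0.07 ± 0.49 in acute Gly-Low libraries (SD, n = 4), 0.14 ± 0.47 in acute control libraries (SD, n = 5) and 0.27 ± 0.40 in young control libraries (SD, n = 4). Old control 2 was the exception of its group at 0.85, while the other old controls ran from -1.49 to -0.51. No test was made of the ratio, as the pair was chosen with earlier results known.

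Within groups, Oxt and Avp tended to vary together, without passing adjustment. The correlation of their deviations from the group means over 20 libraries had r = 0.67 (permutation p = 0.00502) and a Spearman rho of 0.67 (permutation p = 0.00442), and adjusted over the 15 relations computed the values were 0.0753 and 0.0663. Without acute control 1 and young control 4, the libraries farthest out in Oxt, r was 0.51. Oxtr was correlated with the length slope of a library at r = 0.63 (permutation p = 0.0275, adjusted 0.137). Sim1 ran against it at r = -0.45 (permutation p = 0.0220, adjusted 0.137), with a Spearman rho of -0.55 (permutation p = 0.0116), and Oxt did so at r = -0.46 (permutation p = 0.0927, adjusted 0.277). Without old control 3 and young control 4, the libraries farthest out in slope, r was 0.43 for Oxtr, -0.43 for Sim1 and -0.39 for Oxt. No relation among the other pairs of members passed either, Avpr1a and Oxtr having r = 0.02.

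Genes whose deviations most resembled each member over the 20 libraries were sought among 15487 protein-coding genes. They were Ptges3l (r = 0.86), Prr13 (0.86), Gar1 (0.86), Snrpa (0.84) and Aprt (0.83) for Oxt, and Shisa4 (0.91), Ddb2 (0.91), Urm1 (0.89), Ddx39b (0.88) and Gadd45b (0.87) for Avp. For Oxtr they were Pcdhgb1 (0.92), Terf2ip (0.88), Slc24a4 (0.86), Tnfrsf21 (0.86) and Ddx24 (0.84). For Avpr1a they were Cstf2t (0.81), Lipt1 (0.81), Rimklb (0.79), Slc25a12 (0.79) and 5730455P16Rik (0.78), the lowest set of the 5 members. For Sim1 they were Mbnl1 (0.92), Ywhae (0.89), Picalm (0.89), Snap29 (0.88) and Coch (0.88). These are the highest of many correlations and share libraries, depth and length trends, so they are given as a description only.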

How the data were processed

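The authors deposited unnormalized counts of reads for each gene, made from poly-A selected, non-directional libraries, per the labels' protocols. The tools were DESeq2 1.20.0, featureCounts 1.5.0-p3 and also HISAT2 2.0.5, with build GRCm38, per the submitters' processing notes. Which annotation release and strand setting the counting used is not given in the sources used here. Of 54532 genes, 54495 matched the GENCODE vM21 annotation used for symbols, positions and lengths. Without strand, and with a long run shared by Oxt and Avp, some reads cannot be assigned to 1 gene.

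Genes were filtered with filterByExpr by group, libraries scaled by TMM, and counts tested with edgeR 4.0.16 (quasi-likelihood F test, R 4.3.3), adjusted by Benjamini-Hochberg over all genes tested, at a threshold of 0.05. The acute diet was fitted on 9 libraries, age and old diet on the 11 libraries of the ageing arm, and the 2 other contrasts on all 20. The 5 genes passed the filter in every fit. Errors are SE for log2 fold changes and SD over libraries for CPM. CPM values are scaled by TMM over the 20 libraries. The length slope regresses a library's log2 CPM, relative to the average library, on log2 transcript length (median of basic transcripts). At total counts from 15848372 to 27399753, Oxtr and Avpr1a rested on 43 to 333 counts per library, and Oxt and Avp on 780 to 15249. The deposited file held 0 columns that could not be mapped.

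The members and lists were chosen with earlier results of these data known. Named besides the 5 members are Crh, Trh, Otp, Arnt2, Pou3f2, Avpr1b, Cd38 and Lnpep, and, for every pathway list, the 2 called genes of lowest p that are higher and the 2 that are lower. Genes named outside that rule were named after their values were seen. The alternatives comprised the DESeq2 test (1.42.0), edgeR with size factors of DESeq2 or with upper-quartile scaling, filtering off or at CPM above 1 in 3 libraries, limma-voom (limma 3.58.1), other sets of libraries, the replicate number as a block, an offset from the trend in 40 bins of length, a covariate holding the length slope, merged exon lengths and leaving out each library in turn. The fits were also tested on simulated data in which 200 genes were changed by known amounts. Apart from those changes every simulated library of a fit had the same mean share per gene. The simulated data thus held no length trend between libraries and do not bear on how the calls depend on length.

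Same-numbered old Gly-Low and old control libraries correlated around their group means at 0.417, 0.272 and 0.253, which does not show that equal numbers are pairs. The numbers come from the titles, while the table's headers number the old Gly-Low libraries otherwise, and 0 of 3 libraries correlated best with their own number. The block enters only as an alternative.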

Additional observations from a re-analysis of the deposited data

Results flagged for a closer look

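In acute Gly-Low, Avpr1a was at 4.02 CPM in replicate 1, and the other 3 libraries were at 4.96 to 5.12 CPM, which sets that library apart from its group (a gap of 0.851 of the range, where 0.829 is the limit for 4 samples). It was the 1 group flagged of 24 tested in this way, and chance alone flags about 1 in 20 groups.

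The effect of Gly-Low on Oxt differed between the arms by -1.86 ± 0.52 on the log2 scale, old arm minus acute arm, by the interaction term of edgeR (adjusted p = 0.00944). The effect on Oxtr differed by 1.62 ± 0.33 (adjusted p = 9.34e-04 in edgeR). Diet time, age and the length slopes of the libraries all differ between the arms and cannot be told apart.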

How the results depend on the processing

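Of 450 values of the 5 genes under alternatives, 401 kept their direction and side of the threshold. With the direction kept, 14 lost a call and 7 gained one, and 28 changed direction, whatever became of the call. Those 28 include lost acute diet calls, of Oxt and Avp with the length offset and of Oxt against the young controls. For the acute diet, 10005 genes were called, 3807 with the length slope as covariate and 6246 with young controls as reference, both on 19061 genes, and the median of all genes was 0.17 with the slope covariate against -0.07 without. The length offset gave Oxt -0.17, Avp -0.021, Sim1 0.27, Trh -0.046, Lnpep 0.49 and Cck -0.14. The slope covariate gave Oxt 0.25, Avp 1.09, Oxtr -0.72, Sim1 -0.80, Trh -0.45, Otp 1.40, Arnt2 0.66, Cd38 -0.24, Trpm2 1.23, Prkcb 0.18 and Nos1 1.26. With young controls as reference, chosen after seeing the data, Oxt was at -0.12, Avp at 0.35, Crh at -1.14, Cd38 at -0.17 and Cck at -0.38. Without acute controls 2, 3 and 5 Sim1 was at -0.71. The cause of these changes was not tested beyond the construction of the length alternatives.

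For age, edgeR called 6 genes, DESeq2 388, limma-voom with quality weights 3920, edgeR with the slope covariate 413, without a filter 11, fitted on all libraries 120, on the 2 groups compared 0, with the length offset 19, without young control 2 and old control 3 2, and against the acute controls 70, the last chosen after seeing the data. Oxt was at -1.33 in DESeq2, -1.89 in limma-voom and 0.084 against the acute controls, Avp at 0.24 with the offset and 0.89 against the acute controls, Oxtr at 0.62 in limma-voom and Sim1 at 0.032 with the slope covariate. Trh was at -0.44 in limma-voom and Otp at -0.017 with the slope covariate. Against the acute controls Crh was at 0.17, Otp at -0.044, Arnt2 at -0.062, Cd38 at 0.047 and Lnpep at -0.25. For the old diet DESeq2 called 3 genes. Avp was at -0.10 without young control 2 and old control 3, and Avpr1a at 0.038 with the slope covariate. The slope covariate also gave Crh 0.11, Otp -0.23, Arnt2 -0.19 and Pou3f2 -0.082, limma-voom Crh 0.25, Otp -0.46, Arnt2 -0.037 and Pou3f2 -0.065, the offset Crh 0.090, Pou3f2 -0.042, Cd38 -0.089 and Lnpep -0.24 and, once young control 2 and old control 3 were left out, Crh 0.16.

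Between the young groups 1009 genes were called, 1746 in DESeq2 and 0 with the slope covariate, where Oxt was at -0.83. The interaction called 6859 genes and 1718 with the slope covariate, at a median of -0.19 against 0.10, with Oxt at -0.54, Oxtr at 0.72, Arnt2 at -0.86, Scg5 at 0.078 and Nos1 at -1.54.

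With the replicate number as a block, Avp in the acute diet was at 1.30 (edgeR, adjusted p = 0.0904) and Cd38 in the old diet at -0.074, and the block called 8583 genes in the acute diet, 7 with age and 0 in the old diet. It changed no other call of the 5 genes, though it ended the acute calls of Crh, Lnpep and Caprin2 at 0.64, -0.55 and -0.56. Same-numbered libraries correlated at -0.04 to 0.00 in the acute arm, with 0 of 4 closest to their own number, and at -0.05 to 0.60 between old and young controls. Old controls 2 and 4 were closest to the young control of their own number, at 0.27 and 0.60.

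Leaving out 1 library at a time gave Avp from 0.96 to 1.66 and Sim1 from -0.45 to -0.18 for the acute diet. It gave the number of genes called from 0 to 6, Avp from -0.83 to 0.038, Sim1 from -0.19 to 0.0021, Trh from -0.13 to 0.24, Otp from -0.13 to 0.82 and Pou3f2 from -0.060 to 0.42 for age. It gave Avp from -0.21 to 0.66, Avpr1a from -0.28 to 0.083, Crh from -0.35 to 0.17, Otp from -0.71 to 1.12, Pou3f2 from -0.16 to 0.49 and Cd38 from -0.16 to 0.22 for the old diet. It gave the number of genes called from 0 to 3957, Oxt from -1.67 to -1.21, Oxtr from 0.23 to 0.63, Avpr1a from -0.059 to 0.14 and Sim1 from -0.045 to 0.20 between the young groups. It gave Avp from -1.68 to -0.76, Avpr1a from 0.52 to 0.89, Nos1 from 1.05 to 2.63 and Sim1 from -0.094 to 0.19 for the interaction. Among the 5 genes, the calls that changed were those of Avp in the acute diet without acute Gly-Low 1, of Oxt between the young groups without acute control 1 or 5 or young control 1, 2 or 3, of Oxtr between the young groups without young control 4 and of Avpr1a in the interaction without acute control 2. Among the other named genes, calls were lost for Crh, Pou3f2, Lnpep and Caprin2 in the acute diet, Crh and Cck between the young groups and Arnt2, Caprin2 and Nos1 in the interaction, and Cd38 gained one in the acute diet. Between the young groups no gene was called without young control 2 or 3, and 3957 were called without young control 4. Avpr1b, with at most 10 counts in a library, could not be tested at this depth.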

Other observations

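Marker lists of other cell types and nuclei were set beside the acute diet, as acute Gly-Low minus acute control, where 27.8% of all genes were called higher and 30.5% lower. Of 5 arcuate markers tested, 2 were called higher, 1 lower and 2 were not called. Agrp rose by 2.47 on the log2 scale and Ghrh by 0.94, Tbx3 fell by 1.68, and Kiss1 was at 0 in every library. The arcuate list summed to 50.1 to 140 CPM in acute Gly-Low, 34.7 to 64.6 CPM in acute control and 125 to 258 CPM in young control libraries. Between the young groups 4 of the 5 were lower in acute control than in young control, as were 4.37% of all genes. Among 4 lateral hypothalamic markers Pmch rose by 1.74, while Hcrt at -0.26, Lhx9 at 0.02 and Mchr1 at -0.72 were not called, and the list summed to 568.1 to 921 CPM in acute Gly-Low libraries and 161 to 561 CPM in acute control libraries. Ventromedial markers were lower in 4 of 5 cases, Nr5a1 at -2.23, with sums of 108 to 141 CPM in acute Gly-Low libraries and 152 to 214 CPM in acute control libraries. Striatal markers were lower in 4 of 6, thalamic and cortical markers were not called, and choroid plexus markers gave 2 higher and 2 lower of 5. Astrocyte markers gave 1 higher and 2 lower of 5, oligodendrocyte markers 1 and 1 of 5, and microglial markers 2 and 2 of 5. The genes of these lists were named after their values were seen.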
